A study of Mus musculus with 6 samples.

Results

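The ends described here are 5′ ends of polyadenylated mouse RNA that lie within a few bases of the hexamer AATAAA, the canonical polyadenylation signal. A 5′ end was taken when the first 20 bases read from it held AATAAA and the last 6 bases of the read were not all A. Reads listed at 2 locations were left out. The rule kept 24046 of 449338 distinct 5′ ends, and 73331 of 839877 tags (8.73%). The 24046 ends lay at 10346 AATAAA sites, where a site is 1 AATAAA at 1 genome position and strand, and ends at the same site belong to the same stretch of RNA.

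The study surveyed 5′-monophosphate ends by parallel analysis of RNA ends (PARE) in whole spleen, whole liver, whole lung, whole brain, whole ovary and whole kidney of adult mice of BALB-c background. No treatment or genotype set the samples apart, and each tissue was represented by 1 library. The labels do not say how many animals gave a library. In every library poly(A) RNA was selected on oligo(dT) beads, an RNA adaptor was ligated to free 5′ ends, complementary DNA was primed with oligo(dT), and the enzyme MmeI cut a tag of about 20 bases next to the adaptor, per the labels' protocols. Unique tags numbered 42939 in spleen, 78952 in liver, 493121 in lung, 33382 in brain, 29213 in ovary and 162270 in kidney. Levels are tags scaled to 1000000 unique tags of a library (CPM). A count of 0 allows 3 counts, which is 69.9 CPM in spleen, 38.0 in liver, 6.08 in lung, 89.9 in brain, 102.7 in ovary and 18.5 in kidney. Intervals are exact 95% intervals of the counting error alone, and copies made by PCR are not separate molecules. Without a second library of any tissue, differences between tissues have no replicate check and no test.

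As background, most mammalian messenger RNAs end in a poly(A) tail that is added after the nascent transcript is cut. The cleavage and polyadenylation specificity factor binds the AAUAAA of the transcript, cuts a short way downstream of it, and poly(A) polymerase extends the new 3′ end. A 5′ end next to AATAAA therefore leaves a polyadenylated fragment that holds little more than the signal, the few bases up to the cut and the tail. Such 5′-monophosphate ends can come from cleavage inside the transcript or from decay that starts at its 5′ end, and the tags do not tell these apart.

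The sequences below are the most frequent tag at 12 of the sites described further on, chosen among those with the most tags over the 6 libraries or within 1 library to show the signal of each tissue and the range of its distances. The other named sites, site 3 among them, are given by position only. Sites are numbered by their tags over the 6 libraries, coordinates are those of the mouse build mm9, and sequences run 5′ to 3′ on the tag strand. Capitals mark AATAAA, so the number of lower-case letters before it is the distance from the 5′ end to the signal.
Site 1 (chr19:9158133-9158153, minus strand): tgcAATAAActgcgagcatct
Site 2 (chr14:70920763-70920782, minus strand): cacaaaagAATAAAgcagcc
Site 4 (chr11:120590819-120590838, minus strand): tttgcctaAATAAAcgggcc
Site 5 (chr9:61761101-61761121, minus strand): gttaagttggctAATAAAgag
Site 6 (chr4:41659075-41659094, minus strand): tagggaagggaAATAAAggt
Site 8 (chr9:103111213-103111232, minus strand): acaaAATAAAaacgactgct
Site 10 (chr5:90905607-90905627, plus strand): AATAAAaaatggaaagaatct
Site 11 (chrX:163645025-163645044, minus strand): AATAAAgttttaaaacctga
Site 14 (chr17:35333227-35333246, plus strand): tgaaAATAAAgaatgtaaac
Site 22 (chr6:133800036-133800055, minus strand): gaAATAAAcctgcgactgcc
Site 25 (chr10:80655714-80655734, plus strand): ccacccccagAATAAAgctgc
Site 222 (chr8:73282474-73282493, plus strand): acacacagtcAATAAAgcga

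The first question was how much of each library lies at the poly(A) signal. In spleen 16138 of 42939 tags held the hexamer, a share of 37.6% (interval 37.1 to 38.0). The share was 9.69% in liver (interval 9.48 to 9.89), 8.77% in lung (8.70 to 8.85), 4.37% in brain (4.15 to 4.60), 3.86% in ovary (3.64 to 4.09) and 2.27% in kidney (2.20 to 2.35). Spleen thus stood above the other libraries, liver and lung formed the next level, and kidney was lowest. In CPM the spleen level of 375835 was 3.88 times that of liver (interval 3.78 to 3.99) and 4.28 times that of lung (4.21 to 4.36). It was 16.5 times the kidney level (15.9 to 17.1). A second scaling of the depths, by trimmed mean of M values (TMM), gave a spleen to kidney ratio of 9.80. Its depth factors were 1.58 in ovary, 1.40 in brain and 0.742 in kidney, which place ovary below kidney. Kidney was thus lowest only when levels were scaled to unique tags. The neighbours in the order by unique tags were close but apart by more than counting error, with liver 1.10 times lung (1.08 to 1.13) and brain 1.13 times ovary (1.05 to 1.22). In whole tissue, fewer cells of a type and less RNA per cell cannot be told apart.

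**Figure D1:**
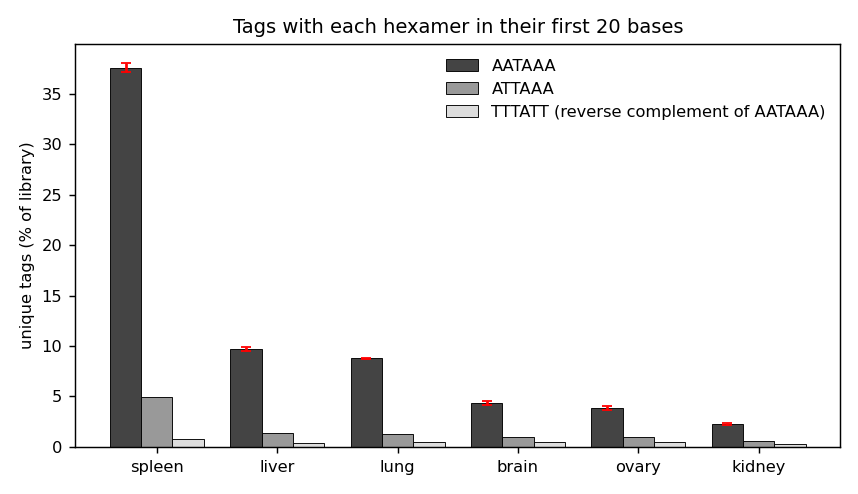
Share of unique tags (percent of the library, vertical axis) that held AATAAA, its common variant ATTAAA or TTTATT, the reverse complement of AATAAA, in their first 20 bases, for each of the 6 libraries. Red bars are exact 95% counting intervals, drawn for AATAAA only; the spleen bar reaches 37.6% and the kidney bar 2.27%.

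Counting each distinct 5′ end once, AATAAA ends made up 29.4% of the ends in spleen, 7.33% in liver, 5.42% in lung, 4.54% in brain, 4.11% in ovary and 2.33% in kidney. The shares of spleen, liver and lung were thus lower by ends than by tags, while brain, ovary and kidney gave about the same value both ways. An AATAAA end held 2.15 tags in spleen against 1.49 at other ends, 2.29 in liver against 1.68, and 2.94 in lung against 1.75. In brain (1.15 against 1.19), ovary (1.16 against 1.23) and kidney (1.46 against 1.50) AATAAA ends held slightly fewer tags than other ends. Without the 10 sites with most tags the lung share was 5.53% and the spleen share 35.2%.

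The spleen library was also highest in other properties, though the order of the remaining libraries differed from that by AATAAA. Tags whose last 6 bases were all A made up 5.95% of its unique tags, 3.77% in brain, 0.835% in lung, 0.657% in liver, 0.318% in ovary and 0.153% in kidney. Its share of lines listed at 2 locations was 15.5%, against 11.9% in ovary and 9.76% to 9.99% in the other 4 libraries. The part of these properties in the spleen share was not tested. The rule left out 191 spleen tags that held AATAAA and ended in 6 A, and 21 such tags in lung, 3 in kidney, 2 in liver, 2 in ovary and 1 in brain.

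AATAAA was compared with every other hexamer. By distinct ends it was the most frequent of all hexamers in each of the 6 libraries, with 4096 hexamers present in 5 libraries and 4092 in spleen. Its count of ends was 153 times that of the median hexamer in spleen, 23.1 times in liver, 16.6 times in lung, 13.9 times in brain, 12.7 times in ovary and 7.46 times in kidney. By tags it was first in spleen, liver, lung and brain and 16th of 4096 in kidney and ovary. AATAAA was also set beside the other arrangements of 5 A and 1 T, which have the same bases. AATAAA tags were 3.04 times as many as those of AAATAA, the next arrangement, with 73331 tags against 24147. Most AAATAA tags also held AATAAA, since the hexamers overlap. Among tags without the canonical hexamer there were 3800 with AAATAA, 3125 with AAAATA, 4458 with AAAAAT, 4830 with ATAAAA and 5956 with TAAAAA in place of it.

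The hexamer ATTAAA, the most common variant of the signal, gave the same order of the 6 libraries at lower levels. It was held by 4.97% of spleen tags, 1.42% of liver tags, 1.33% of lung tags, 1.02% of brain tags, 0.976% of ovary tags and 0.542% of kidney tags. TTTATT, the reverse complement of AATAAA, was held by 0.799% of spleen tags, 0.383% of liver tags, 0.455% of lung tags, 0.458% of brain tags, 0.493% of ovary tags and 0.297% of kidney tags. Spleen was thus highest for the reverse complement too, by a smaller margin than for AATAAA. Tags were read on their own strand, so ends on the strand opposite to the AATAAA sites were not counted here.

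The second question was where the 5′ ends fall relative to the signal. The hexamer can start at bases 1 to 15 of the searched stretch, and distinct ends were densest where it starts at base 1, that is where the RNA begins with AATAAA itself. With the hexamer at bases 1, 2, 3, 4 and 5 there were 11544, 8214, 6656, 7378 and 5503 tags. At bases 6 to 10 there were 5536, 5720, 4042, 4464 and 3584 tags, and at bases 11 to 15 there were 2919, 3584, 1815, 1433 and 939. The fall was not even, with base 4 above base 3, base 7 above base 6, base 9 above base 8 and base 12 above base 11 by tags, and in kidney base 3 with 453 tags was above base 1 with 385. Starts at bases 1 to 5 took 53.6% of tags and 49.4% of distinct ends, and starts at bases 11 to 15 took 14.6% of tags and 18.9% of ends. The share of tags at bases 1 to 5 was 63.2% in spleen, 58.6% in liver, 51.7% in kidney, 49.7% in lung, 47.3% in ovary and 45.6% in brain. By ends it was 56.9% in spleen and 46.4% to 50.4% in the other libraries, so the lean toward the signal was present in each of the 6 libraries and steepest in spleen. The median start was base 4 in spleen and base 5 over all libraries, by tags.

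**Figure D2:**
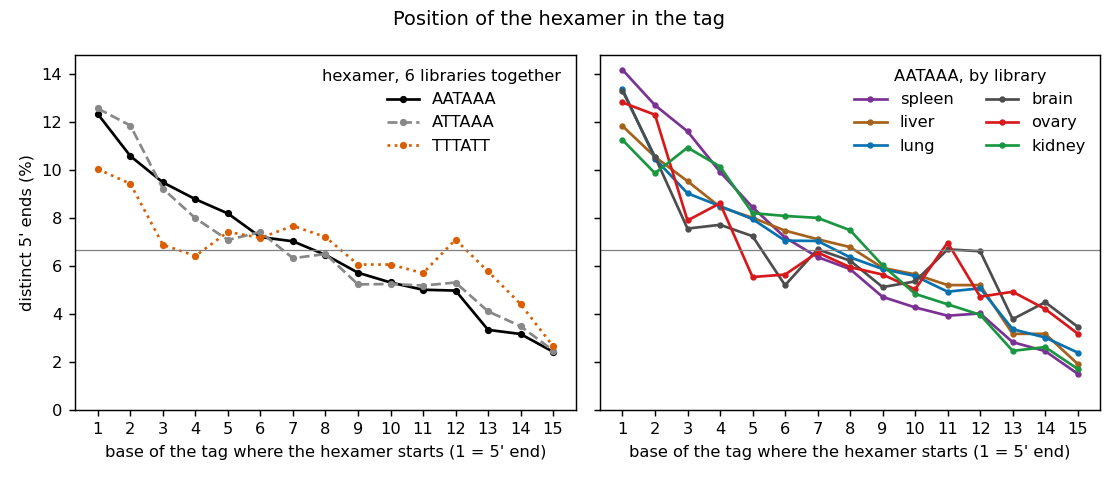
Percent of distinct 5′ ends (vertical axis) by the base of the tag at which the hexamer starts (horizontal axis, base 1 being the 5′ end), for 3 hexamers over the 6 libraries together (left) and for AATAAA in each library (right). The grey line is an even spread over the 15 starts; AATAAA and ATTAAA are highest at base 1 and lowest at base 15, and spleen is the steepest of the 6 libraries.

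This slope was steep among all hexamers but not the steepest. Over 3424 hexamers with at least 500 ends, the share of ends at bases 1 to 5 had a median of 33.3% and ranged from 15.4% to 66.1%, and AATAAA ranked 11th. ATTAAA had 48.7% of its ends there and the other arrangements of 5 A and 1 T 43.8% to 50.3%. Many ends of the arrangements also held AATAAA. It was lacking at 2413 of 10117 ATAAAA ends, 1718 of 10104 AAATAA ends and 3287 of 5857 TAAAAA ends. The same held for 2375 of 5507 AAAATA ends and 2770 of 4554 AAAAAT ends. Their profiles thus contain part of the AATAAA profile and cannot show whether the slope is particular to it. TTTATT had 40.2% over all libraries. In spleen the signal hexamers and the reverse complement differed, with 56.9% for AATAAA and 56.8% for ATTAAA, against 29.2% for TTTATT. The spleen value for TTTATT rests on 243 ends, of which 204 lacked AATAAA, against 7516 AATAAA ends.

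Ends of all kinds were then counted by their distance from the 10346 sites, which shows what lies beyond the range the rule fixes. Between 60 and 20 bases upstream of the signal there were 837 ends per position over the sites and libraries. From 4 bases upstream to its first base there were 2383 ends per position, and the highest single position was the first base of AATAAA with 2972 ends. Past it there were 1233 ends per position at 1 to 5 bases, 299 at 6 to 15 bases and 99.4 at 16 to 40 bases after the first base. The sites were found through ends 0 to 14 bases upstream, so the height of that stretch over its surroundings follows in part from the rule. Downstream, the tables hold only tags that aligned to the genome, and a tag that runs past the RNA's 3′ end into the tail has no match there, so the low counts past the signal follow in part from the alignment. Outside it, spleen had 363 ends per position at 1 to 5 bases after the first base of the signal, against 70.2 at 60 to 20 bases upstream. The same stretches had 815 against 616 in lung, 211 against 113 in liver, 50.8 against 44.9 in brain, 46.6 against 38.4 in ovary and 133 against 149 in kidney. Ends just past the start of the signal were therefore denser than ends further upstream in spleen by the widest margin, and not in kidney. The sites came from the same libraries, with 4296 of them seen in spleen, 6945 in lung and 1708 in kidney. The part of this choice of sites in the contrast between libraries was not tested.

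**Figure D3:**
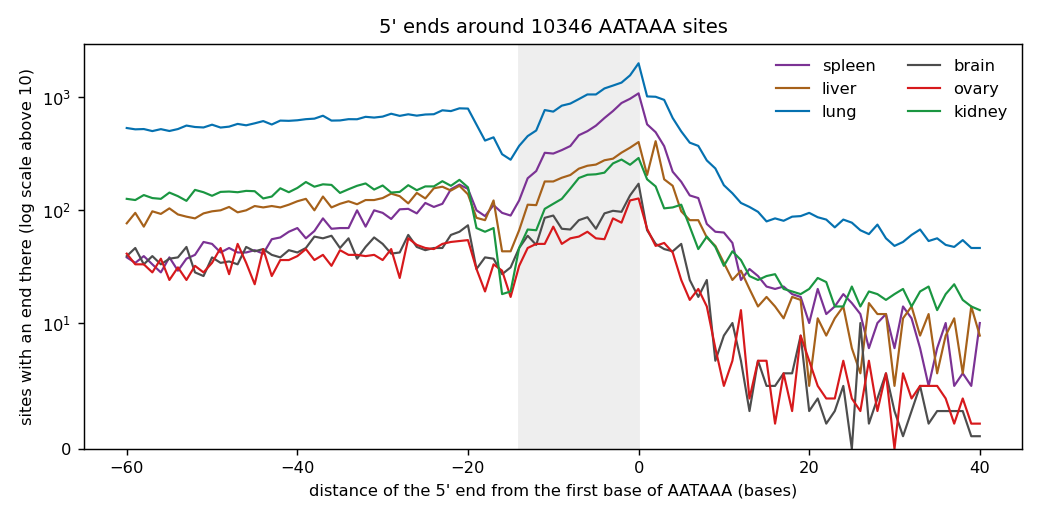
Number of AATAAA sites with a 5′ end at each distance (vertical axis, log scale above 10) from the first base of AATAAA (horizontal axis, bases, negative values upstream) in each library, over 10346 sites. The grey band marks the 0 to 14 bases upstream from which the rule takes ends; within the band each of the 6 libraries is highest at the first base of AATAAA, and each is lower at 19 to 15 than at 14 to 10 bases upstream.

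A dip lay at 19 to 15 bases upstream, with 575 ends per position against 837 further upstream and 930 at 14 to 10 bases upstream. Spleen had 96.0 ends per position there, above its 70.2 further upstream but below its 233 at 14 to 10 bases. Tags from the dip end inside AATAAA. Tags that lacked the hexamer also ended less often in A: the last pair of bases of tags of 20 bases was AA at 4.45% of ends, against 8.03% for the first pair, and both G or C at 33.0% of ends, against 12.9% for the first pair. The part of this end composition in the dip was not tested.

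The bases around the signal were read from the tags. The base after AATAAA was A at 35.4% of 10252 sites, G at 26.6%, T at 22.0% and C at 16.1%. For ATTAAA the base after it was A at 34.4% and G at 29.3% of sites, while after TTTATT it was T at 37.6%. The base before AATAAA was A at 40.3% of 9468 sites and G at 15.6%. The first base of the ends themselves, for hexamers from base 2 on, was T at 38.0%, A at 32.6%, C at 20.4% and G at 8.99%, close to the composition over all unique ends of 33.9% T, 29.6% A, 26.6% C and 9.99% G, with somewhat less C. No AATAAA tag fell within any of 1005 microRNA hairpin sequences of RefSeq.

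The label of a poly(A) signal was checked against annotated gene ends where this was possible. No annotation of mm9 was used. The first 20 bases of the ends were instead matched to the 300 bases around each gene start in RefSeq for build GRCm38.p6, a table that holds the end of a gene only where it lies next to the start of another. With 1 tag matched per end, 126 of 178 matched AATAAA ends (70.8%) had the end of a gene on the same strand within 60 bases downstream, against 193 of 3305 other matched ends (5.84%). Ends at the same site share a gene end, so these percentages count ends and not separate sites. The matched sequences run from 250 bases before to 50 bases after a gene start. Other ends can thus belong to the gene that starts there, and are not a like background. How many did was not counted. With every AATAAA tag matched, there were 64 sites with 453 tags. At 39 of these sites a gene on the same strand ended between 50 bases before and 300 bases after the signal, and at 35 of them, in 34 genes, the distance from the first base of AATAAA to the gene end was 17 to 39 bases with a median of 22. The remaining 4 distances were 48, 56, 196 and 258 bases. The match bears only on these sites and not on the others.

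Counts at the sites named this way cover only the tags whose 20 bases matched, and a site can hold a few more. Ndufa13, which encodes a subunit of mitochondrial complex I, had most matched tags. Its signal at base 69894201 of the minus strand of chromosome 8 (GRCm38.p6), 38 bases before the gene end, had 4 matched tags in spleen, 3 in liver, 58 in lung, 5 in brain, 2 in ovary and 46 in kidney. A second AATAAA of the same gene end, 23 bases before it, had 15 matched tags. Apoc4, an apolipoprotein gene, had 24 matched tags 30 bases before its end, 18 of them in liver and 5 in lung. Pfdn5, a subunit of the prefoldin chaperone, had 25 matched tags 22 bases before its end, with 14 in lung and 8 in spleen. Kmt2d, a histone methyltransferase, had 10 matched tags 26 bases before its end, all in spleen. Of Acads, a mitochondrial fatty acid dehydrogenase, 19 matched tags lay 22 bases before the end, 12 of them in lung. Atp6v0c, a subunit of the proton pump of lysosomes, had 17 matched tags at 20 bases, and Lamb2, a laminin chain, 15 matched tags at 20 bases with 13 of them in lung. Sympk, the scaffold protein symplekin of the cleavage machinery itself, had 5 matched tags 39 bases before its end, with 4 in lung and 1 in kidney. Lung had the most unique tags, so a high count there need not be a high level. In CPM the first Ndufa13 signal was highest in kidney (283, against 118 in lung). Pfdn5 was highest in spleen (186, against 28.4 in lung) and Acads in liver (38.0, against 24.3 in lung). Lamb2 had 26.4 in lung and 34.2 in ovary, the latter from 1 tag. Among the genes named here lung was highest only at Sympk (8.11, against 6.16 in kidney). These counts are small, and only 8 of the 35 sites held 10 matched tags or more.

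The third question was how the tags spread over sites. A small number of sites carried much of the total. The 464 sites with at least 20 tags held 61.0% of the AATAAA tags, the 10 strongest held 27.4% and the strongest alone 14.1%. These shares rest on lung, which gave 59.0% of the AATAAA tags, and without lung the 10 strongest sites held 15.3%. Within a library the 10 strongest sites held 19.03% in spleen, 34.2% in liver, 39.9% in lung, 9.66% in brain, 12.3% in ovary and 15.6% in kidney. Spleen therefore had the highest share of AATAAA tags with a lower concentration than liver or lung, over 4296 sites. At the other extreme, 5058 sites had 1 tag, 6584 (63.6%) were seen in 1 library, 2190 in 2 libraries and 75 in all 6. A site with 1 tag can be seen in 1 library only, so the 5058 are among the 6584.

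At strong sites the 5′ ends were spread rather than fixed. The 464 sites with at least 20 tags had a median of 9 of the 15 possible ends, and their strongest end held a median of 30.0% of the tags (range 13.7% to 100%). At 57 of them a single end held more than 50%. The strongest end began at AATAAA itself at 102 of the 464 sites, within bases 1 to 5 at 310 and within bases 11 to 15 at 53. Only 11 of the 10346 sites had an end at each of the 15 starts.

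The strongest site of the series was site 1, on the minus strand of chromosome 19 with AATAAA at position 9158150. It had 10282 tags in lung, 3 in spleen, 46 in liver, 10 in brain, 0 in ovary and 17 in kidney. Lung stood alone, with 20851 CPM against 583 in liver, a ratio of 35.8 (interval 26.8 to 48.9). Its ends covered all 15 starts, and the strongest, 3 bases before the signal as in the sequence above, held 18.8% of the tags. The lung tags of the site were 31.2% of all 32937 lung tags that began within 2000 bases upstream to 50 bases downstream of the signal, so most lung tags there lay elsewhere along the same strand.

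The same pattern of lung tags was seen at 3 more sites. Site 2 (chromosome 14, minus strand, position 70920774) had 2867 tags in lung, 22 in liver, 11 in kidney and 1 each in spleen, brain and ovary (lung over liver 20.9, interval 13.8 to 33.3). Site 4 (chromosome 11, minus strand, position 120590830) had 1127 tags in lung, 5 in liver, 3 in kidney, 1 in brain and 0 in spleen and ovary (lung over liver 36.1, interval 15.4 to 111). Here a single end 8 bases before the signal held 81.5% of the tags. Site 7 (chromosome 6, plus strand, position 72264345) had 778 tags in lung, 5 in liver, 3 in kidney and 0 in spleen, brain and ovary (lung over liver 24.9, interval 10.6 to 76.9). At each of these sites lung lay above the other libraries by more than their counting error.

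Spleen led at other sites. Site 3 (chromosome 18, plus strand, position 60972285) had 1012 tags in spleen, 25 in liver, 313 in lung, 3 in brain, 3 in ovary and 1 in kidney. In CPM this was 23568 in spleen against 635 in lung, a ratio of 37.1 (interval 32.7 to 42.3), which was 22.1 under TMM scaling. Of the spleen tags 536 began at the first base of the signal. The spleen tags of the site were 86.6% of the 1168 spleen tags from 2000 bases upstream to 50 downstream, against 24.6% of 1271 such tags in lung and 48.1% of 52 in liver. Spleen and lung thus had similar raw counts on this stretch of RNA, placed differently along it. The lung library held 493121 unique tags against 42939 in spleen, so per unique tag the stretch was far higher in spleen.

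Site 14 (chromosome 17, plus strand, position 35333231) had 395 tags in spleen, 8 in liver, 9 in lung and 0 in brain, ovary and kidney (spleen over liver 90.8, interval 45.6 to 212, and 47.8 under TMM scaling). Nearly all spleen tags of the stretch around it, 97.5% of 405, lay at the signal. Site 11 (chromosome X, minus strand, position 163645044) had 287 tags in spleen, 13 in liver, 250 in lung, 4 in brain, 10 in ovary and 2 in kidney (spleen over lung 13.2, interval 11.1 to 15.7, and 7.84 under TMM scaling). At the signal lay 90.3% of the 318 spleen tags of that stretch and 14.5% of 1727 lung tags.

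Liver led at sites 8, 10 and 12. Site 8 (chromosome 9, minus strand, position 103111228) had 493 tags in liver, 51 in spleen, 125 in lung, 7 in brain, 4 in ovary and 24 in kidney (liver over spleen 5.26, interval 3.94 to 7.16). Site 12 (chromosome 7, minus strand, position 20281639) had 352 tags in liver, 38 in spleen, 130 in lung, 8 in brain, 8 in ovary and 27 in kidney (liver over spleen 5.04, interval 3.60 to 7.24). Spleen was second at both, ahead of lung in CPM. Site 10 (chromosome 5, plus strand, position 90905607) had 454 tags in liver, 111 in spleen, 28 in lung, 0 in brain, 1 in ovary and 1 in kidney. Its liver level of 5750 CPM was 2.22 times the 2585 CPM of spleen (interval 1.80 to 2.76), a narrow lead next to the difference along the transcript: the signal took 42.2% of 263 spleen tags but 6.0% of 7577 liver tags of that stretch. Under TMM scaling the liver to spleen ratios were 9.98, 9.57 and 4.22 for sites 8, 12 and 10.

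Kidney and brain had few sites of their own. Site 22 (chromosome 6, minus strand, position 133800053) had 196 tags in kidney, 99 in lung, 1 in spleen, 1 in ovary and 0 in liver and brain (kidney over lung 6.02, interval 4.70 to 7.74). Site 50 (chromosome X, minus strand, position 159399971) had 55 tags in kidney, 60 in lung, 1 in ovary and 0 in spleen, liver and brain (kidney over lung 2.79, interval 1.90 to 4.08). At site 22 the signal took 6.2% of 3154 kidney tags of the stretch, so most kidney tags there lay away from the signal. Site 222 (chromosome 8, plus strand, position 73282484) had 22 tags in brain, 9 in lung, 2 in ovary, 1 in liver, 1 in spleen and 0 in kidney (brain over ovary 9.63, interval 2.37 to 84.4). Site 25 (chromosome 10, plus strand, position 80655724) had 24 tags in brain, 160 in lung, 22 in kidney, 10 in spleen, 6 in liver and 2 in ovary (brain over lung 2.22, interval 1.38 to 3.42). Its lead did not hold under TMM scaling, at 1.18 (interval 0.735 to 1.82).

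Several of the named sites had tags in all 6 libraries, among them sites 2, 3 and 8. Sites 5 and 6 had at least 14 tags in each of the 6 libraries. Site 5 (chromosome 9, minus strand, position 61761109) had 215 tags in spleen, 65 in liver, 457 in lung, 22 in brain, 38 in ovary and 27 in kidney (spleen over ovary 3.85, interval 2.72 to 5.59). Its strongest end, 12 bases before the signal, held 14.9% of the tags. Site 6 (chromosome 4, minus strand, position 41659083) had 143 tags in spleen, 51 in liver, 532 in lung, 14 in brain, 27 in ovary and 37 in kidney (spleen over lung 3.09, interval 2.55 to 3.72, and 1.84 under TMM scaling). All 804 tags of this site began at 1 base, 11 bases before the signal, unlike the spread of ends at most strong sites. Site 25 was alike in this, with 97.8% of its tags at the end 10 bases before the signal.

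Of the remaining named sites, site 13 (chromosome 9, plus strand, position 108242652) was level between liver and spleen, with 129 tags in liver, 69 in spleen, 220 in lung, 64 in kidney, 3 in brain and 2 in ovary (liver over spleen 1.02, interval 0.753 to 1.38). Under TMM scaling liver led it 1.93 times (interval 1.43 to 2.63). Site 9 (chromosome 19, minus strand, position 44468971) had 124 tags in liver, 429 in lung, 48 in kidney, 17 in spleen, 2 in brain and 1 in ovary (liver over lung 1.81, interval 1.47 to 2.21). Site 20 (chromosome 7, plus strand, position 13512007) had 81 tags in spleen, 13 in ovary, 174 in lung, 24 in kidney, 20 in liver and 1 in brain (spleen over ovary 4.24, interval 2.35 to 8.30).

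**Figure D4:**
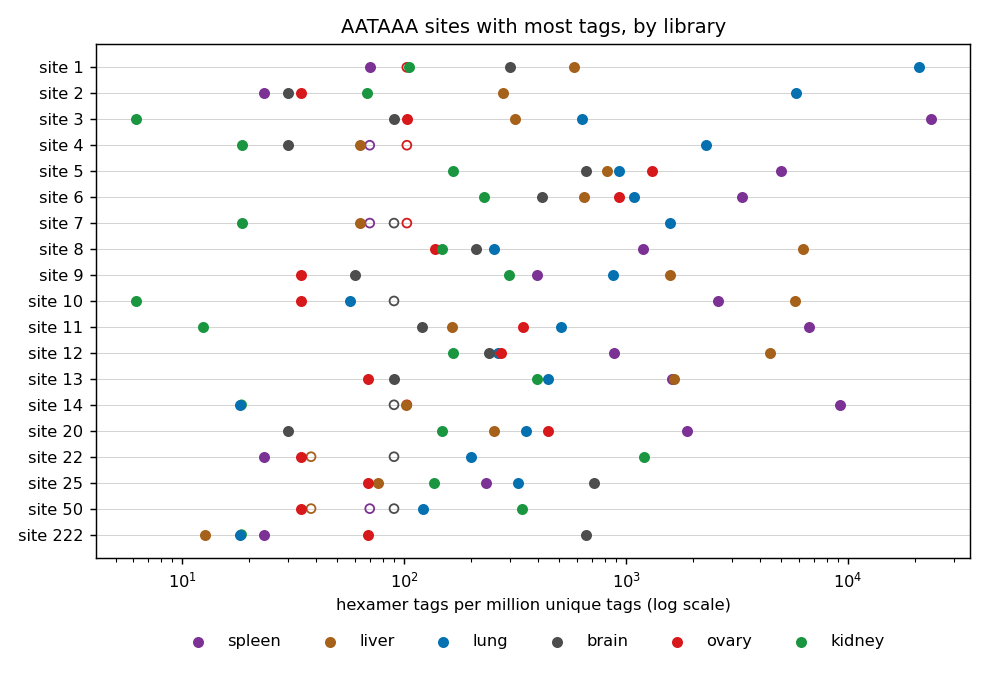
AATAAA tags scaled to 1000000 unique tags (horizontal axis, log scale) at the 19 named sites in each library, with sites running down the page in order of tags over the 6 libraries. Open circles are counts of 0, drawn at the 3 counts that a 0 allows; lung lies far right at sites 1, 2, 4 and 7, spleen at sites 3, 11 and 14, and kidney at sites 22 and 50.

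How often a library led was counted over ends whose highest library (by CPM) had 10 tags or more. A library led an end when its ratio to the second highest had a lower bound above 1. Among AATAAA ends 269 of 383 (70.2%) were led, beside 1302 of all 2757 such ends of the series (47.2%). Spleen led 168 AATAAA ends (43.9%, beside 9.9% of all ends), liver 56 (14.6%, beside 14.2%), lung 33 (8.62%, beside 9.87%), kidney 7 (1.83%, beside 12.1%), brain 4 (1.04%, beside 0.653%) and ovary 1 (0.261%, beside 0.508%). Among other ends 1033 of 2374 (43.5%) were led, 105 (4.42%) by spleen, 336 (14.2%) by liver, 239 (10.1%) by lung and 326 (13.7%) by kidney. The shares led by liver and lung were thus near those of other ends, the share led by spleen was higher and the share led by kidney was lower. Ends were counted through their highest library, so this partly restates the AATAAA shares of 37.6% in spleen and 2.27% in kidney. By site, 276 of 433 (63.7%) were led, beside 1551 of 4366 windows of 2 kb over the whole series (35.5%). A window spans far more positions than a site, so this background is an unlike unit. Spleen led 198 sites (45.7%, beside 8.2% of windows), liver 54 (12.5%, beside 9.25%), lung 14 (3.23%, beside 4.26%), kidney 5 (1.15%, beside 8.66%), brain 3 (0.693%, beside 3.87%) and ovary 2 (0.462%, beside 1.28%). Without the spleen library 103 sites were led, and 138 were led when 20 tags were asked of the highest library.

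To set the signal against the rest of the same stretch of RNA, the share of tags at AATAAA was taken in strand-specific windows of 2 kb with at least 20 tags. In spleen the median share over 243 windows was 41.8%, and 107 windows had more than 50% of their tags there. The median was 2.44% in brain (97 windows), 1.89% in lung (4038), 1.82% in liver (457), 0% in ovary (66) and 0% in kidney (1034). In the 181 windows that reached 20 tags in both spleen and lung, the share was higher in spleen in 120, lower in 15 and equal in 46, of which 45 had none in either. Over these windows together 48.4% of spleen tags and 7.76% of lung tags lay at AATAAA. The share was likewise higher in spleen than in kidney in 60 of 89 windows (lower in 2), than in liver in 33 of 56 (lower in 6), than in ovary in 14 of 29 (lower in 2) and than in brain in 11 of 17 (lower in 1). Lung was higher than kidney in 384 of 812 windows and lower in 78. The AATAAA tags themselves counted toward the 20 tags asked of a window. In the shallow spleen library, windows rich in AATAAA tags therefore passed more readily. The higher share in spleen was thus seen within the same windows, among those that passed this filter.

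**Figure D5:**
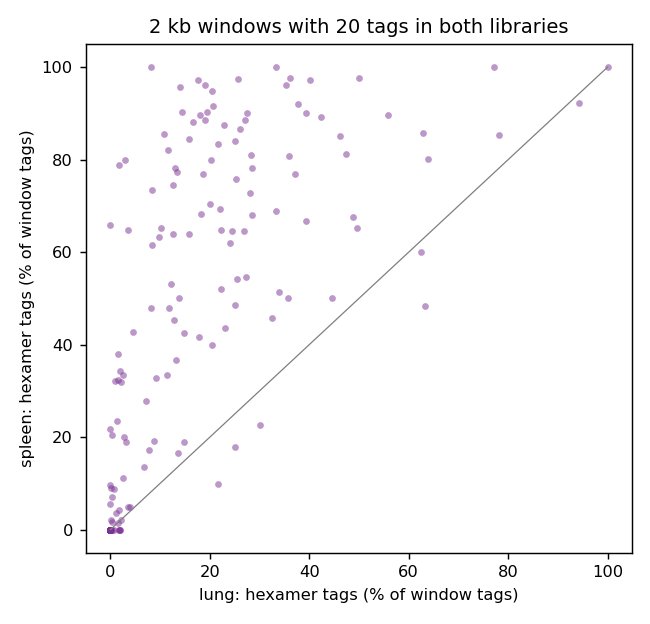
Percent of tags at AATAAA in windows of 2 kb in spleen (vertical axis) against lung (horizontal axis); each point is 1 of the 181 strand-specific windows with at least 20 tags in both libraries, and the line marks equal shares. Spleen lies above the line in 120 windows and below it in 15.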

How the data were processed

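Each deposited table lists 1 line per distinct tag with its mm9 location, strand, sequence and read count, per the file that the authors deposited beside it. The count was read from the name field as the authors deposited it. The deposited score is a display density and was not used as a measurement. Tags were aligned with Bowtie to mm9, per the submitters' processing notes; neither its version nor its mismatch setting was given in the sources used. Reads listed at 2 locations were left out. Sequences on the minus strand are written in reference orientation (98.9% of 25718 bases shared with plus-strand tags were identical as written) and were reverse complemented. Tags of 20 or 21 bases made up 99.6% of unique tags.

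Counts were scaled to 1000000 unique tags. Shares carry Clopper-Pearson intervals and ratios conditional binomial intervals (95%). The naming rule took the 10 sites with most tags over the 6 libraries and the 3 with most tags in each library, which gave 19 sites. The members, the lists and this rule were chosen with earlier results of these data known. Genes were named only through an exact match of 20 bases to RefSeq gene-start sequences (GRCm38.p6, 32851 sequences), a step chosen after the files had been seen; the planned gene lists and tissue markers could otherwise not be assessed, so the tissue labels were not checked. Calculations used Python 3.11.15, pandas 2.3.3, numpy 2.4.6 and scipy 1.17.1, and were tested on simulated data. Alternatives are in the closing section.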

Additional observations from a re-analysis of the deposited data

How the results depend on the processing

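The order with spleen highest and kidney lowest held under each alternative that recomputed the shares. Of the library levels, TMM scaling was run for the spleen to kidney ratio only. Its factors of 1.58 in ovary and 0.742 in kidney place ovary below kidney. With reads at 2 locations kept, the shares were 38.4% in spleen, 9.02% in lung, 4.26% in ovary and 2.41% in kidney. With ATTAAA in place of AATAAA they were 4.97% in spleen, 1.42% in liver, 1.33% in lung, 1.02% in brain, 0.976% in ovary and 0.542% in kidney. With each end counted once they were 29.4% in spleen, 7.33% in liver, 5.42% in lung and 4.11% in ovary, and without the 10 strongest sites 35.2% in spleen, 8.19% in liver, 5.53% in lung, 3.61% in ovary and 2.17% in kidney. The spleen to kidney ratio of 16.5 became 9.18 with ATTAAA, 12.6 by ends and 9.80 under TMM scaling. The share of tags with the hexamer at bases 1 to 5, 53.6%, became 55.0% with ATTAAA, 55.9% without the 10 strongest sites, 49.4% by ends, 52.7% with libraries weighted equally, and 50.9% to 59.2% with 1 library left out. The share at the 10 strongest sites, 27.4%, became 23.9% with reads at 2 locations kept, 13.6% with ATTAAA, 0.624% by ends, 14.9% with libraries weighted equally, and 15.3% (without lung) to 32.7% (without spleen) with 1 library left out. The 276 led sites became 41 with ATTAAA, 138 with at least 20 tags, and 103 (without spleen) to 287 (without brain). The ratio of AATAAA to the next arrangement, 3.04, became 2.38 by ends, 2.31 with libraries weighted equally, and 2.19 to 3.39 with 1 library left out. Apart from the place of kidney below ovary, which TMM scaling did not keep, none of these values changed direction, and the causes were not tested. Leaving out libraries in turn for led sites, and leaving out ends whose main tag lacks the hexamer (18 ends, 30 tags), were chosen after seeing the data. No paired analysis was possible because each tissue has 1 library and no test was made. The depth of brain and ovary, where a 0 allows 89.9 and 102.7 CPM, limits what can be said of single sites there.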
